A study of Homo sapiens with 15 samples.

Results

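The IL-1 family cytokines described here are 7 genes taken by symbol from a count table of 60286 genes. They are *IL1A*, *IL1B*, *IL1RN*, *IL18*, *IL33*, *IL36B* and *IL36G*. RNA came from THP-1, a human monocytic leukaemia line labelled WT, in 15 libraries with 3 in each of 5 groups. NC cells received PBS. EUC and EPL cells received 1 μg/mL of bacterial extracellular vesicles (BEVs) of *E. coli* DH5a, isolated by ultracentrifugation (UC) or by ε-poly-L-lysine precipitation (PL). SUC and SPL cells received 10 μg/mL of *S. aureus* BEVs from the same 2 methods, UC and PL respectively. Species and dose changed together, so their effects cannot be told apart. The study's methods give 6 h of incubation, whereas the labels give Day 0. A single cell line grown in culture was used, and the labels speak of triplicates without saying whether these were separate cultures. The p-values therefore measure the spread between these libraries, which may be technical.

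IL-1 family cytokines are small signalling proteins that start and shape inflammation. IL-1α (*IL1A*) and IL-1β (*IL1B*) activate one shared receptor, and the IL-1 receptor antagonist (*IL1RN*) occupies that receptor without activating it. IL-18, IL-33 and the IL-36 cytokines act through related receptors, which signal through MYD88, IRAK kinases and TRAF6. IL-1β and IL-18 are made as inactive precursors that caspase-1 cuts inside inflammasomes, so a transcript level does not give the amount of active cytokine. Monocytes are a classical source of IL-1β. IL-33 is best known from endothelial and epithelial cells, and the IL-36 cytokines are best known from keratinocytes.

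Of the members, 5 lie in the IL-1 gene cluster on chromosome 2 of hg38, where 9 family genes span 360.1 kb (GENCODE annotation). *IL1A* (ENSG00000115008) lies at chr2:112773925-112784493 and *IL1B* (ENSG00000125538) at chr2:112829751-112836816, both on the minus strand. *IL36G* (ENSG00000136688) lies at chr2:112973203-112985658 on the plus strand, and *IL36B* (ENSG00000136696) at chr2:113022089-113052867 on the minus strand. *IL1RN* (ENSG00000136689) closes the cluster at chr2:113099315-113134016 on the plus strand. The other two are *IL18* (ENSG00000150782) at chr11:112143253-112164096 on the minus strand and *IL33* (ENSG00000137033) at chr9:6215786-6257983 on the plus strand. Only *IL18* and *IL36G* are overlapped by another annotated gene, with 0 bases of shared exon and 0 counts on the overlapping gene.

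Sequences upstream of the RefSeq starts of *IL1B*, *IL1A* and *IL1RN* are shown because these genes make the 2 agonists and the antagonist of one receptor and moved together by different amounts. *IL33* is shown beside them as a member with 0 counts in NC. Promoters were matched for 5 of the 7 members (RefSeq, GRCh38.p14). Each window began 250 bases before the most 5′ of the RefSeq starts (3 for *IL1RN*, 2 for *IL1A* and *IL33*, 1 for *IL1B*). It was cut on the side of the start until no base of an annotated exon was left. This left out the 37 bases nearest the start for *IL1B*, 78 for *IL1RN* and 120 for *IL36G*, and 0 for *IL1A* and *IL33*. Capitals mark matches, on either strand, to 6 motifs: the NF-kappa B consensus, the PU.1 core GAGGAA, the C/EBP motif TTGCNNAA, the AP-1 motif TGANTCA, the ISRE motif and the TATA box TATAAA. Each sequence reads 5′ to 3′ on the strand of its gene.
IL1B (chr2:112836817-112837029, minus strand): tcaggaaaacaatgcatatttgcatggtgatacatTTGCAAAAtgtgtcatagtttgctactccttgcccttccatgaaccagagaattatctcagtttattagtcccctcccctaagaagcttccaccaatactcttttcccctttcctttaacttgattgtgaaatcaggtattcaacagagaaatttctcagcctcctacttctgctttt
IL1A (chr2:112784494-112784743, minus strand): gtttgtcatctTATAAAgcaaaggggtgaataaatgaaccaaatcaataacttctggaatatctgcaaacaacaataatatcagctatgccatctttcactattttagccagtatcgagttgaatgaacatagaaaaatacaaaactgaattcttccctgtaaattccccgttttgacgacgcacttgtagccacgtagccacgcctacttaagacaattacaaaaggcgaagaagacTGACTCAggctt
IL1RN (chr2:113117721-113117892, plus strand): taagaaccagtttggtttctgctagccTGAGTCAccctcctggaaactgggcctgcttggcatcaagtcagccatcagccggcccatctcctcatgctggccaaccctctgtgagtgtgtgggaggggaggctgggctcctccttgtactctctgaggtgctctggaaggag
IL33 (chr9:6214899-6215148, plus strand): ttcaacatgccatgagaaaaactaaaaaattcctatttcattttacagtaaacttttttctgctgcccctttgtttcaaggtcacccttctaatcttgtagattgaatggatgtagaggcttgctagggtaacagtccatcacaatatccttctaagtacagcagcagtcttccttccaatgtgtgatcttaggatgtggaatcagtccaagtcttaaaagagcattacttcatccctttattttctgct

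The *IL1B* window held a C/EBP match 215 to 208 bases before the start. The *IL1A* window held an AP-1 match 12 to 6 bases before the start and a TATA box match 239 to 234 bases before it. The *IL1RN* window held an AP-1 match 223 to 217 bases before the start used, which lies inside the annotated gene. The *IL33* window held no match. The window of *IL36G* (chr2:112977756-112977885, not shown) held a PU.1 match 138 to 133 bases before the start. No match overlapped a match of another motif. Matches were sought in the full 250 bases of each member, and none lay in the bases left out. Of 35116 windows of 250 bases, the share with a match was 9.05% for C/EBP, 6.57% for AP-1, 10.7% for the TATA box, 23.6% for PU.1, 9.96% for NF-kappa B and 3.02% for ISRE. These matches are descriptions of the letters and say nothing of binding in these cells.

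Library totals on genes ran from 14399421 to 16637345 reads. Libraries of a group differed by more than counting noise in every pair, with a chi-square per degree of freedom from 2.2 to 46.1, so no pair looked like copies of one library. This does not show that they came from separate cultures. The highest of these values was between EUC1 and EUC3. Of 11 monocyte markers, 9 were tested, among them *CD14*, *CD33*, *CSF1R* and *SPI1*, while *CD68* and *FCN1* were at or near 0. Their summed level was 1289 to 1310 CPM (counts per 1000000 of the normalized library size) in NC and 1762 to 2293 CPM in the stimulated groups. Most of that difference was in *SPI1*, at 471 CPM in NC and between 960 and 1198 CPM in the other group means. *MPO*, a granule enzyme of immature myeloid cells, fell in all 4 comparisons with NC (log2 fold change -1.59 to -1.27). *CD33* (-0.72 to -0.35) and *LYZ* (-0.45 to -0.11) were below NC by less than the fold threshold. *CD14* was above NC, called in EUC (1.23) and SUC (1.08) but not in EPL (0.96) or SPL (0.89). Its SUC call was lost without NC1 or SUC3. It was called in EPL without NC3 or EPL3, and in SPL without NC3. *CSF1R* was above NC by less than the fold threshold (0.43 to 0.68). Of 13 markers of other cell types, 3 had a count of 0 in all libraries, and *NCAM1* and *COL1A1* were among those that passed the filter on low counts. Their summed level was 11.8 to 19.5 CPM over all libraries. The epithelial marker *EPCAM*, the endothelial marker *CDH5* and the keratinocyte markers *KRT1*, *KRT5* and *KRT14* had 0 to 2 counts over the 3 libraries of any group. *COL1A1*, a collagen gene of fibroblasts, rose in all 4 comparisons with NC, from 0.746 CPM to between 1.87 and 4.52 CPM in the group means. Its part in the results below was not tested.

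The first question was how the family responded to BEVs. All members but *IL18* were higher in each of the 12 stimulated libraries than in each NC library. The share of all tested genes with this pattern was not counted, so it is a description only. *IL1B* went from 2.15 CPM to between 599 and 1733 CPM in the group means, and *IL1RN* from 16.5 CPM to between 72.3 and 101 CPM. *IL33*, *IL36B* and *IL36G* had 0 counts in NC, so 1 count in a stimulated library was enough to stand above NC. *IL18* had group means from 9.19 to 9.59 CPM in NC, EUC, EPL and SUC, and 7.72 CPM in SPL. Differential expression was tested with edgeR's quasi-likelihood test over 17198 genes, and a gene was called at a Benjamini-Hochberg adjusted p no higher than 0.01 and an absolute log2 fold change of 1 or more. In bulk RNA, more RNA per cell and more expressing cells cannot be told apart. Of the 6 members tested, 5 rose in each of the 4 comparisons with NC. Of all tested genes, 9.43% rose in EUC and 9.38% in EPL, and 6.82% rose in SUC and 7.76% in SPL. *IL1A*, *IL33* and *IL36B* passed the filter on low counts only through the groups where they were high, so the count of 5 of 6 is a description. The 4 comparisons share the NC libraries.

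**Figure D1:**
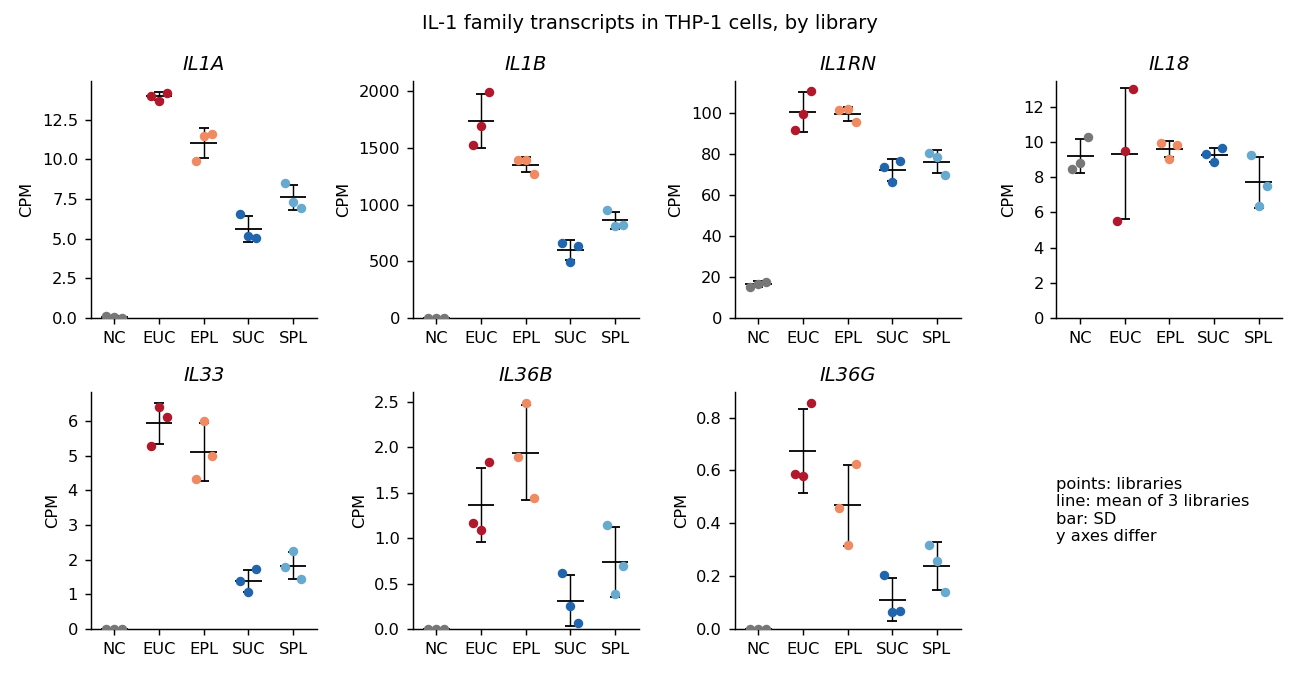
Level of each member in CPM (y axis, linear, a separate range for each gene) in the 5 groups (x axis), with 1 point per library, a line at the mean and a bar for the SD of 3 libraries. *IL1B* in EUC sits between 1524 and 1987 CPM against 1.54 to 2.71 CPM in NC, whereas the *IL18* points of NC lie among those of the stimulated groups.

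*IL1B*, the main secreted agonist of monocytes, had the highest level per length of the members in every stimulated group. Its levels in NC were 1.54, 2.71 and 2.21 CPM. They were 1524, 1688 and 1987 CPM in EUC and 1390, 1390 and 1273 CPM in EPL. The levels were 666, 498 and 633 CPM in SUC and 950, 810 and 818 CPM in SPL. No library of one group overlapped another group, and the order was EUC, EPL, SPL, SUC and NC. The fitted rise to NC was 799-fold in EUC (log2 fold change 9.64 ± 0.198 SE, adjusted p = 1.22e-15) and 623-fold in EPL (9.28 ± 0.196, adjusted p = 1.93e-15). It was 276-fold in SUC (8.11 ± 0.19, adjusted p = 6.6e-15) and 396-fold in SPL (8.63 ± 0.192, adjusted p = 4.04e-15). Ranked by CPM per kb of exon among 60169 genes with a known length, *IL1B* stood between place 46 and place 53 in EUC, and between 12582 and 14726 in NC.

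*IL1A*, the agonist that is active also as a precursor, followed the same order of groups at a much lower level. It had 2, 1 and 0 counts in NC and 215, 214 and 216 counts in EUC. It had 151, 181 and 185 counts in EPL, 96, 83 and 77 in SUC, and 133, 114 and 101 in SPL. In CPM the means were 14 ± 0.244 (SD, n = 3) in EUC and 11 ± 0.944 in EPL, against 5.61 ± 0.824 in SUC and 7.6 ± 0.798 in SPL. The groups did not overlap. With 3 counts over the NC libraries, the ratio of normalized counts was 230 in EUC (95% exact binomial interval 78.3 to 1118) and 181 in EPL (61.7 to 882). It was 92.1 in SUC (31.2 to 449) and 125 in SPL (42.6 to 611). These intervals cover counting error only. The fitted log2 fold change in EUC went from 7.67 to 8.54 without NC1, which held 2 of the 3 counts in NC. The adjusted p was between 1.49e-12 in EUC and 1.37e-10 in SUC.

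*IL1RN*, whose product blocks the receptor of both agonists, was already present in NC at 15.0, 16.6 and 17.9 CPM. It was at 91.6, 99.4 and 111 CPM in EUC and at 101, 102 and 95.6 CPM in EPL. In SUC it was at 73.6, 66.4 and 76.9 CPM, and in SPL at 80.4, 78.6 and 69.8 CPM. All *E. coli* libraries were above all *S. aureus* libraries, while UC and PL overlapped within each species. The rise to NC was 6.1-fold in EUC (log2 fold change 2.61 ± 0.102 SE, adjusted p = 1.4e-12), 6.04-fold in EPL (2.59 ± 0.102, adjusted p = 1.64e-12), 4.38-fold in SUC (2.13 ± 0.101, adjusted p = 2.85e-11) and 4.62-fold in SPL (2.21 ± 0.101, adjusted p = 1.61e-11).

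Because agonist and antagonist share a receptor, their levels were set against each other within each library, as CPM per kb of exon. In NC, *IL1B* was at 0.127, 0.202 and 0.153 times the level of *IL1RN*, so the antagonist transcript was the more abundant. In EUC, *IL1B* was at 20.6, 21.1 and 22.2 times *IL1RN*, and in EPL at 17, 16.9 and 16.5 times. In SPL it was at 14.7, 12.8 and 14.5 times, and in SUC at 11.2, 9.32 and 10.2 times. The groups did not overlap in this ratio. Adding *IL1A* to *IL1B* changed the mean ratio from 21.3 to 21.6 in EUC and from 10.2 to 10.4 in SUC. The ratio compares transcripts that were both measured above, and it was not tested.

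**Figure D2:**
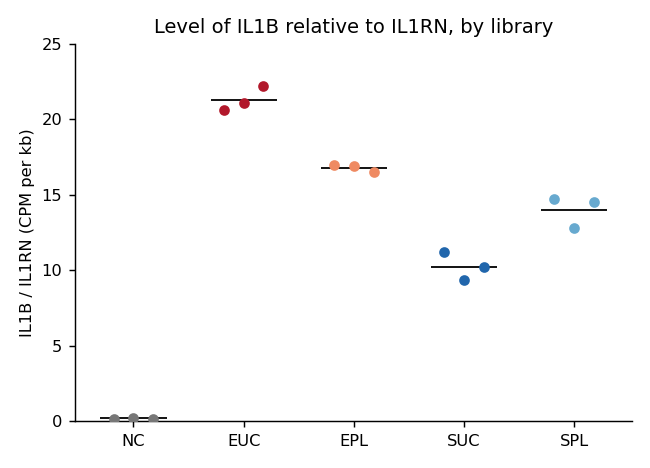
Ratio of *IL1B* to *IL1RN* (y axis, both as CPM per kb of exon, no unit) in each of the 15 libraries by group (x axis), with a line at the mean of 3. The NC libraries lie between 0.127 and 0.202, and the 4 stimulated groups form separate bands from 9.32 in SUC to 22.2 in EUC.

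*IL18*, which monocytes make without stimulation, showed no call. It had 132, 150 and 173 counts in NC, and 85, 148 and 197 in EUC. The counts were 151, 142 and 157 in EPL, 136, 142 and 146 in SUC, and 145, 99 and 109 in SPL. The EUC libraries spanned all NC libraries, and the other groups overlapped NC as well. The log2 fold change to NC was 0.02 in EUC (95% interval -0.44 to 0.47) and 0.06 in EPL (-0.39 to 0.51). With *S. aureus* BEVs it was 0.01 in SUC (-0.45 to 0.47) and -0.25 in SPL (-0.71 to 0.21). The 4 adjusted p-values ran from 0.418 to 0.98. All 4 intervals lie within a log2 fold change of 1 in either direction. The EUC value went to -0.30 without EUC3 and to 0.29 without EUC1. *IL18* made up 31.3% to 33.9% of the reads on the 7 members in NC and 0.337% to 1.53% in the stimulated libraries, where *IL1B* made up 85.9% to 93.1%.

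*IL33*, which encodes an alarmin of barrier tissues, had 0 counts in all 3 NC libraries. It had 81, 100 and 93 counts in EUC and 66, 94 and 80 in EPL. It had 20, 17 and 26 counts in SUC and 28, 35 and 21 in SPL. Every *E. coli* library was above every *S. aureus* library, and the methods overlapped within each species. Against a floor of 3 counts over the NC libraries (0.0607 CPM), *IL33* was 97.7-fold higher in EUC and 84.2-fold higher in EPL. It was 22.7-fold higher than the floor in SUC and 30.3-fold higher in SPL. Such ratios to the floor take the counts of the stimulated group as exact, so they leave out its counting error. The adjusted p was between 1.38e-09 in EUC and 9.09e-07 in SUC. The markers of endothelium and epithelium named above, cell types known for IL-33, were at or near 0 in the same libraries. Of the collagen genes among the markers, *COL1A1* rose in all 4 comparisons with NC and *COL1A2* had 0 to 1 counts in each group. Which cells gave the *IL33* reads was not tested.

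The IL-36 agonists were the members with the fewest reads. *IL36B* had 0 counts in NC, 18, 17 and 28 in EUC, 29, 39 and 23 in EPL, 9, 4 and 1 in SUC, and 18, 6 and 10 in SPL. Against the same floor, with the same limit, it was 22.5-fold higher in EUC, 31.9-fold in EPL, 5.03-fold in SUC and 12.3-fold in SPL. Its adjusted p reached 4.51e-05 in EUC and 1.41e-05 in EPL. It was 0.00954 in SUC and 0.000499 in SPL. The call in SUC was lost without NC1, NC2, NC3, SUC1 or SUC2, with adjusted p from 0.0158 to 0.0426, and also with a replicate block (adjusted p = 0.015). *IL36G* had 0 counts in NC, 9, 9 and 13 in EUC, 7, 5 and 10 in EPL, 3, 1 and 1 in SUC, and 5, 4 and 2 in SPL, and did not pass the filter on low counts. Against the floor it was 11.1-fold higher in EUC, 7.72-fold in EPL, 1.8-fold in SUC and 3.96-fold in SPL. With so few counts, the counting error left out of these ratios is large. Fitted without the filter, *IL36G* had an adjusted p of 6.62e-06 in EUC and 0.000109 in EPL. Its adjusted p was 0.0943 in SUC and 0.00609 in SPL.

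**Figure D3:**
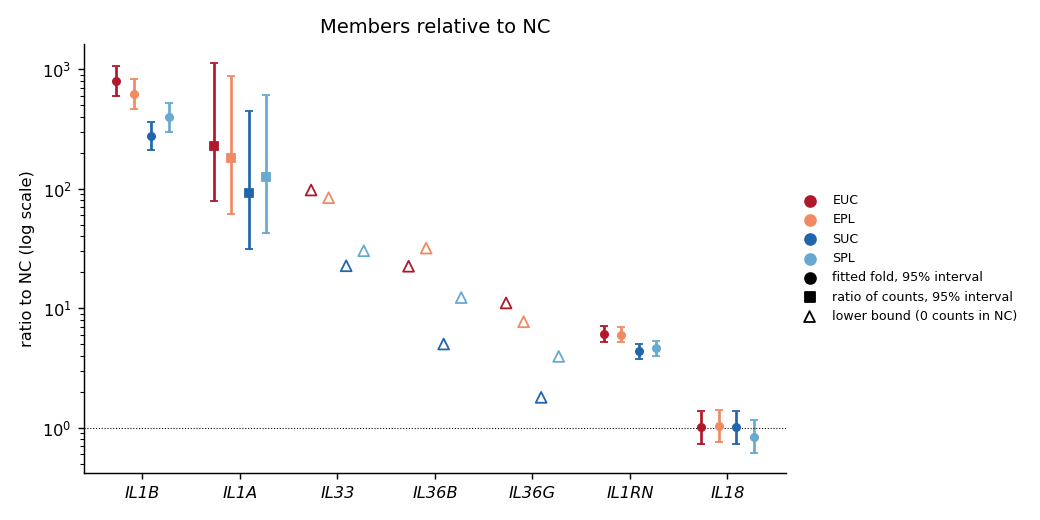
Ratio of each stimulated group to NC (y axis, log scale) for the 7 members (x axis), with circles for fitted folds and squares for ratios of counts, both with 95% intervals. Triangles, labelled lower bounds, are ratios to the floor for members with 0 counts in NC, without the counting error of the stimulated group. *IL1B* in EUC is at 799, *IL1RN* lies between 4.38 and 6.1, and the intervals of *IL18* include 1.

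Compared per kb of exon, the order of the members changed between NC and the stimulated groups. In NC, *IL1RN* (4.41 ± 0.391 CPM per kb, SD, n = 3) stood above *IL18* (3.53 ± 0.379), with *IL1B* at 0.714 ± 0.195 and *IL1A* at 0.0309 ± 0.0318. In EUC, *IL1B* (576 ± 77.9 CPM per kb) was followed by *IL1RN* (27.0 ± 2.6), *IL1A* (6.92 ± 0.121), *IL18* (3.58 ± 1.43), *IL33* (1.82 ± 0.182), *IL36B* (0.731 ± 0.22) and *IL36G* (0.49 ± 0.115). *IL36B* and *IL36G* overlapped in that group, and the other neighbours did not. EPL had the same order of means. In SUC, *IL18* (3.56 ± 0.147 CPM per kb) stood above *IL1A* (2.78 ± 0.408) without overlap. In SPL, *IL1A* (3.77 ± 0.396) and *IL18* (2.96 ± 0.558) overlapped.

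The next question was whether the response differed between the BEVs of the 2 species, at the doses used. The mean of the *E. coli* groups was set against the mean of the *S. aureus* groups. *IL33* was 3.45-fold higher with *E. coli* BEVs (log2 fold change 1.79 ± 0.166 SE, 95% interval 1.43 to 2.14, adjusted p = 9.27e-06). *IL1B* was 2.13-fold higher (1.09 ± 0.0909, 0.9 to 1.28, adjusted p = 1.4e-06). *IL36B* was 3.36-fold higher (1.75 ± 0.369, 0.96 to 2.54, adjusted p = 0.00814). These 3 of 6 tested members were called, beside 0.663% of all tested genes that were called higher. *IL36B* passed the filter on low counts through the groups where it was high, with 17 to 39 counts in the *E. coli* libraries and 1 to 18 in the others, so the counts over tested members in this comparison are descriptions. The call of *IL36B* was lost in 12 of 17 alternatives. Among them were the fits that left out EUC1, EUC2, EUC3, EPL1, EPL2, EPL3, SUC2, SUC3, SPL2 or SPL3 in turn, with adjusted p from 0.0104 to 0.0339.

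*IL1A* and *IL1RN* were also higher with *E. coli* BEVs, by less than the fold threshold. *IL1A* was 1.9-fold higher (log2 fold change 0.92 ± 0.107 SE, adjusted p = 2.92e-05) and *IL1RN* 1.35-fold (0.43 ± 0.0657, adjusted p = 0.000391). With the adjusted p alone, 5 of 6 tested members were higher, beside 2.87% of all tested genes. All 6 *E. coli* libraries were above all 6 *S. aureus* libraries for *IL1A*, *IL1B*, *IL1RN* and *IL33*, that is for 4 of 6 tested members, beside 3.05% of tested genes. *IL18* differed by a log2 fold change of 0.16 (95% interval -0.17 to 0.49, adjusted p = 0.707). *IL36G* had 5 to 13 counts in the *E. coli* libraries and 1 to 5 in the *S. aureus* libraries, and its adjusted p without the filter was 0.0591.

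Within UC, *IL1A*, *IL1B* and *IL33* were called higher in EUC than in SUC, by log2 fold changes of 1.32 ± 0.153, 1.53 ± 0.13 and 2.1 ± 0.238 (SE), with adjusted p of 6.47e-05, 4.38e-06 and 9.26e-05. The share of all tested genes called higher was 0.733%. The *IL33* call was lost when only these groups entered the fit (adjusted p = 0.0104). *IL36B* had a log2 fold change of 2.13 ± 0.564 (adjusted p = 0.0432), which ran from 1.66 to 3.02 when 1 library was left out (adjusted p from 0.0168 to 0.195), the highest being without SUC1. It was called without the filter (adjusted p = 0.00229). Within PL, only *IL33* was called of the 6 tested members, at 1.47 ± 0.231 on the log2 scale (adjusted p = 0.00675), beside 0.105% of all tested genes called higher. That call was lost without any one of EPL1, EPL2, EPL3, SPL1, SPL2 and SPL3 (adjusted p from 0.0103 to 0.0537). *IL1B* had a log2 fold change of 0.65 ± 0.128 in EPL against SPL (adjusted p = 0.0172), and *IL1A* one of 0.53 ± 0.15 (adjusted p = 0.131).

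The study was set up to compare the isolation methods, so PL was set against UC within each species. No member was called by edgeR in EPL against EUC, where 0% of tested genes were called in either direction, or in SPL against SUC, where the share was 0.00581%. DESeq2 also called 0 members in both. At an unadjusted p under 0.05 there were 2 members in each comparison, *IL1A* and *IL1B*, beside 3.51% of all tested genes in EPL against EUC and 5.81% in SPL against SUC. In *E. coli* BEVs they were lower with PL, by a log2 fold change of -0.34 (95% interval -0.65 to -0.04) for *IL1A* and -0.36 (-0.63 to -0.09) for *IL1B*, both with adjusted p = 0.947. In *S. aureus* BEVs their log2 fold change was 0.44 (0.11 to 0.78, adjusted p = 0.814) for *IL1A* and 0.52 (0.25 to 0.79, adjusted p = 0.718) for *IL1B*. Over the alternative fits, this *IL1B* value ran from 0.4 to 0.6 and its adjusted p from 0.000452 to 0.999. In the fits that left out 1 library, its adjusted p was no lower than 0.217. Over all alternatives in SPL against SUC, the lowest adjusted p was 0.445 for *IL1A*. It was 0.394 for *IL1A* and 0.209 for *IL1B* in EPL against EUC. The EUC and EPL libraries did not overlap for these members, as for 6.37% of all tested genes, nor did the SUC and SPL libraries, as for 12.8%. EUC above EPL together with SPL above SUC, without overlap in either, held for *IL1A*, *IL1B* and 0.285% of tested genes.

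The difference of methods was compared between the species in one contrast. It was -0.88 on the log2 scale for *IL1B* (95% interval -1.26 to -0.5, adjusted p = 0.412) and -0.78 for *IL1A* (-1.24 to -0.33, adjusted p = 1.0). No member was called by edgeR or DESeq2. Of all tested genes, 0% were called by edgeR, and DESeq2 called 3 of the 60286 genes in the table. With the adjusted p alone, 1 member passed in DESeq2 and 0 in edgeR. At an unadjusted p under 0.05 there were 2 members, *IL1A* and *IL1B*, beside 3.83% of all tested genes. For *IL1RN* the intervals of PL against UC were narrow, from -0.21 to 0.18 in *E. coli* and from -0.12 to 0.28 in *S. aureus*. For *IL18* they ran from -0.41 to 0.5 and from -0.73 to 0.2. *IL33* had intervals from -0.66 to 0.23 and from -0.16 to 0.98, and *IL36B* from -0.44 to 1.45 and from -0.04 to 2.55, so a change of 2-fold was within reach for *IL36B* in both species.

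**Figure D4:**
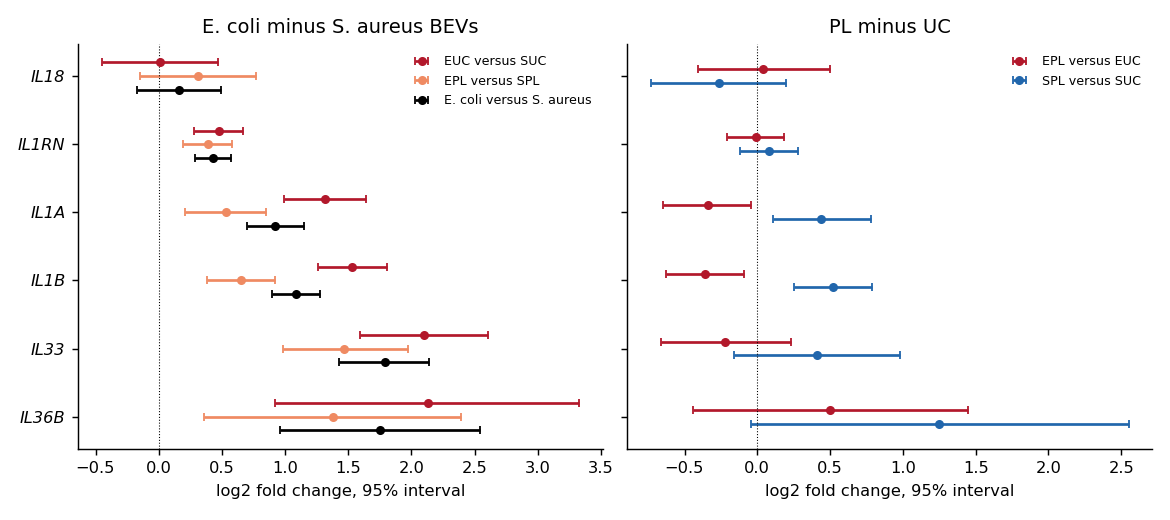
Log2 fold change with 95% interval (x axis) of the 6 tested members (y axis) between BEV species (left) and between isolation methods (right). On the left all intervals but those of *IL18* lie above 0, and on the right *IL1A* and *IL1B* lie below 0 for *E. coli* and above 0 for *S. aureus*.

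Other genes of the pathway were examined from lists of ligands, receptors, processing factors and signalling proteins. Of the 4 further ligands of the family, none passed the filter. *IL1F10* had 0 counts in all libraries and *IL36A* 0 to 1 counts in each group. *IL36RN*, which encodes the antagonist of the IL-36 receptor, had 0 counts in NC, 9 in EUC and 8 in EPL, 2 in SUC and 3 in SPL. *IL37*, which encodes an anti-inflammatory member, had 4 counts in NC, 9 in EUC and 8 in EPL, 2 in SUC and 5 in SPL.

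Of 11 receptors and binding proteins, 6 were tested. In each comparison with NC, 2 rose, 1 fell and 3 were not called. Of all tested genes, 5.75% fell in EUC and 5.15% in EPL, and 3.06% fell in SUC and 3.7% in SPL, beside the shares that rose given above. The median log2 fold change of the 6 was between 0.16 and 0.28, beside -0.01 to 0.01 over all tested genes. The genes that rose encode both chains of the IL-18 receptor. *IL18RAP* went from 0.179 ± 0.115 CPM (SD, n = 3) in NC to 7.88 ± 1.29 in EUC and 6.11 ± 0.778 in EPL, and to 4.53 ± 0.285 in SUC and 4.19 ± 0.576 in SPL, with log2 fold changes from 4.47 to 5.38. *IL18R1* went from 0.559 ± 0.503 CPM to 5.9 ± 1.28 in EUC and 3.11 ± 0.382 in SPL, with log2 fold changes from 2.44 to 3.37. Its NC libraries ran from 0.192 to 1.13 CPM, and without NC3 its log2 fold changes were 4.38 in EUC and 3.98 in EPL, and 3.96 in SUC and 3.46 in SPL. So the transcripts of the IL-18 receptor rose while no change of *IL18* was called. *SIGIRR*, which encodes an inhibitory receptor of the family, fell from 34.8 ± 2.7 CPM to between 9.46 and 12.3 CPM in the group means, with log2 fold changes from -1.88 to -1.5 (adjusted p from 2.29e-06 to 2.86e-05). The receptor of IL-33, *IL1RL1*, and the receptor of the IL-36 cytokines, *IL1RL2*, had 0 to 2 and 0 to 1 counts in each group.

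Of 19 processing and release genes in the table, 18 were tested. In EUC 6 rose and 2 fell, in EPL 8 rose and 2 fell, in SUC 2 rose and 0 fell, and in SPL 3 rose and 2 fell, to be read beside the same shares of all tested genes. Their median log2 fold change was 0.56, 0.6, 0.36 and 0.35 in that order. *NINJ1*, whose product ruptures the plasma membrane in lytic cell death, rose from 65.1 ± 2.27 CPM to between 323 and 496 CPM in the group means (log2 fold change 2.31 to 2.93). *AIM2*, a DNA sensor of an inflammasome, rose in all groups from 1 count in NC to 29 in EUC and 19 in EPL, 14 in SUC and 30 in SPL. The count in NC was in NC3. Its ratio was 31.0 in EUC (95% exact binomial interval 5.14 to 1267), and the call in SUC (adjusted p = 0.00449) was lost in 6 of 10 alternatives. Those included the fits without NC1, NC2, SUC1 or SUC2, with adjusted p from 0.0128 to 0.0245.

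*CASP1*, which encodes the protease that cuts pro-IL-1β, rose in EUC, EPL and SPL with log2 fold changes of 1.29 ± 0.105, 1.21 ± 0.104 and 1.05 ± 0.104 (SE). In SUC its value was 0.96 ± 0.104 (adjusted p = 1.43e-06), and it passed the fold threshold without NC1 (1.01) or SUC2 (1.05). *CASP5*, a caspase that binds lipopolysaccharide, rose in EUC (3.21 ± 0.651) and in EPL (2.58 ± 0.685), from 6 counts in NC. It was not called in SUC (2.22 ± 0.711, adjusted p = 0.0245) or SPL (1.38 ± 0.78, adjusted p = 0.197). Between the species it was not called either (log2 fold change 1.1, adjusted p = 0.123). The EPL call was lost without NC1, NC2, NC3, EPL2 or EPL3, with adjusted p from 0.0137 to 0.0294. *PYCARD*, the adaptor of inflammasomes, fell in EUC, EPL and SPL with log2 fold changes of -1.21 ± 0.223, -1.44 ± 0.226 and -1.09 ± 0.222. In SUC its value was -0.82 ± 0.22, and -1.09 without SUC3, where it passed the threshold. *NLRP1*, an inflammasome sensor, fell in the same 3 groups with log2 fold changes of -2.06, -1.4 and -1.33, the last of which was lost without NC2, NC3, SPL1 or SPL2 (adjusted p from 0.0113 to 0.0181).

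All 14 receptor signalling genes were tested, and 3 rose in EUC and EPL and 2 in SUC and SPL. *IRAK2*, a kinase of the receptor complex, rose from 1.86 ± 0.198 CPM to between 31.4 and 48.6 CPM (log2 fold change 4.07 to 4.7). *MYD88*, the adaptor that joins the receptors to the kinases, rose from 43.2 ± 1.02 CPM to between 141 and 164 CPM (1.71 to 1.92). *TAB2*, an adaptor of the TAK1 kinase, rose in EUC and EPL (1.14 and 1.16) and was at 0.88 and 0.97 in SUC and SPL. The median of the list was between 0.28 and 0.34. None of the receptor, processing and signalling genes was called by edgeR or DESeq2 between the species or between the isolation methods. With the edgeR adjusted p alone, 1 gene of each list was higher with *E. coli* BEVs, beside 2.87% of all tested genes. They were *IL18RAP* (log2 fold change 0.67, adjusted p = 0.0037), *NINJ1* (0.43, adjusted p = 0.00591) and *IRAK2* (0.42, adjusted p = 0.00231). At an unadjusted p under 0.05, 2 receptors, 9 processing genes and 3 signalling genes differed between the species, of 6, 18 and 14 tested, beside 17% of all tested genes. The same limit was met by 0, 0 and 1 genes in EPL against EUC and by 0, 1 and 1 in SPL against SUC, to be read beside the shares of all tested genes at that limit given above.

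**Figure D5:**
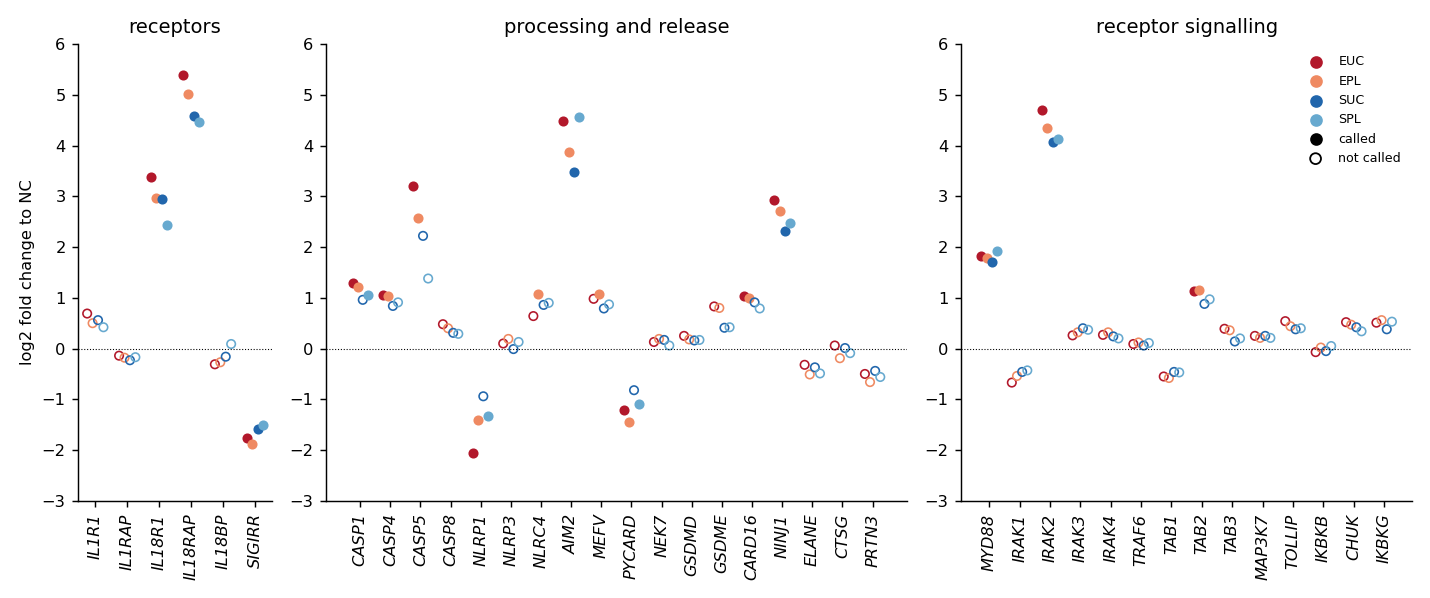
Log2 fold change to NC (y axis) of the tested receptors, processing and release genes and signalling genes (x axis), with a point for each stimulated group, filled where called. *IL18RAP* (4.47 to 5.38) and *IRAK2* (4.07 to 4.7) are high in all groups, *SIGIRR* (-1.88 to -1.5) is low in all, and the points of *AIM2* rest on 1 count in NC.

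Of the neighbours of the gene cluster, *SLC20A1*, *CKAP2L*, *PSD4* and *PAX8* were tested and *NT5DC4* was not. None was called in any comparison with NC by edgeR or DESeq2, and 3 had an unadjusted p under 0.05 in each. That limit was met by 48.1% of all tested genes in EUC and 47.1% in EPL, and by 40.4% in SUC and 42.2% in SPL. With the adjusted p alone, 3 differed in EUC and EPL and 2 in SUC and SPL. Their median log2 fold change was between 0.02 and 0.1. *CKAP2L*, which lies 9.3 kb from *IL1A*, had log2 fold changes from 0.68 to 0.92.

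Genes with profiles most like each member were sought by the root-mean-square difference of centred log2 CPM over the 15 libraries, among genes with a mean of at least 1 CPM. For *IL1B* they were *EBI3* (0.201), *SLAMF7* (0.343) and *TNFAIP6* (0.41). For *IL1A* they were *PLA2G7* (0.194), *CXCL2* (0.255) and *MGLL* (0.262). For *IL1RN* they were *CMPK2* (0.0625), *LYN* (0.0978) and *EHD1* (0.106). The profile of *IL33* was followed most closely by *STAT4* (0.292), *IL23A* (0.304) and *OLR1* (0.33), and that of *IL36B* by *ADAM19* (0.487), *PI15* (0.525) and *WNT5A* (0.544). For *IL18*, which varied little between groups, they were *PIGP* (0.177), *PSMB8-AS1* (0.182) and *PSMB10* (0.184). The libraries share their groups, so these values describe likeness over 5 conditions rather than over 15 independent points.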

How the data were processed

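RNA of THP-1 cells was measured by RNA-seq in 15 libraries, grouped by their titles and treatments. The authors extracted RNA with Trizol, prepared libraries with an NEB kit and sequenced paired ends. The submitters' processing notes name FastQC 0.11.5, HISAT2 2.1.0, StringTie 1.3.3b, DESeq 1.28.0, featureCounts and hg38. The authors deposited whole-number read counts per gene, without normalization. For counting, neither the strand setting nor the annotation is given in the sources used here. Reads of overlapping and antisense genes could be assigned to either gene.

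The deposited counts (14399421 to 16637345 per library) were analysed with edgeR 4.0.16 (R 4.3.3). filterByExpr kept 17198 of 60286 genes, which were normalized by TMM and fitted by glmQLFit in one model of all 15 libraries, and each contrast was tested with glmQLFTest. Called genes passed 0.01 after Benjamini-Hochberg adjustment and had an absolute log2 fold change of 1 or more. CPM are counts per 1000000 of the TMM-normalized library size, and log2 CPM used a prior count of 2. Levels per kb used exon-union lengths of GENCODE. Members with 0 counts in NC were given a ratio to a floor of 3 counts over the NC libraries. This ratio leaves out the counting error of the stimulated group. Those with 1 to 3 counts were given a ratio with a 95% exact binomial interval. Fits were tested on simulated data. DESeq2 1.42.0, RLE size factors, no filter on low counts, fits of the compared groups alone, a replicate block, no fold threshold and leaving out each library were tried as alternatives.

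The members and lists were chosen with earlier results of these data known. Named beyond the members were up to 4 genes per list with the largest mean absolute log2 fold change to NC among those called, the genes of counts of 5 or fewer, marker genes, and the 3 genes most like each tested member. The list genes named at or near 0 counts, the neighbours of the cluster and *CASP1* and *PYCARD* in SUC were named after their values were seen. Other measurements of the study were not analysed here.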

Additional observations from a re-analysis of the deposited data

Results flagged for a closer look

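*IL1B* and *IL1A* stood out because the isolation methods differed in opposite directions in the 2 species. Every EUC library was above every EPL library, and every SPL library was above every SUC library. The contrast of the 2 differences was -0.88 on the log2 scale for *IL1B* (adjusted p = 0.412) and -0.78 for *IL1A* (adjusted p = 1.0) with edgeR's quasi-likelihood test over all genes, so neither passed the threshold. For *IL1B* the adjusted p ranged from 1.08e-06 to 1.0 over the alternatives, and no alternative took its size to 1. In the fits that left out 1 library it was no lower than 0.185, so the lowest values came from other alternatives. *IL1B* was the 1 member that passed the adjusted p alone in DESeq2.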

How the results depend on the processing

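Over all alternatives, 689 of the recomputed log2 fold changes of members kept their direction and side of the threshold, 26 lost the call, 1 gained it and 13 changed sign without being called in either. For the other named genes the numbers were 713, 22, 6 and 0. The count of members called in *E. coli* against *S. aureus* went from 3 to 5 without the fold threshold. The count in EPL against SPL went from 1 to 0 with only the compared groups in the fit, and to 0 without any one library. The signs that changed were those of *IL18* and *IL1RN* near 0. With the replicate block, *IL18* in EUC against SUC was at -0.01. Leaving out 1 library, *IL18* ranged from -0.30 to 0.29 in EUC against NC, from -0.05 to 0.10 in SUC against NC, from -0.22 to 0.35 in EPL against EUC, from -0.01 to 0.29 in *E. coli* against *S. aureus* and from -0.31 to 0.27 in EUC against SUC, and *IL1RN* from -0.08 to 0.06 in EPL against EUC. The causes were not tested.

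Whether libraries of the same replicate number belong together could not be settled. No comparison had a correlation of same-numbered deviations over 0.1 for all 3 numbers, and at most 4 of 6 libraries correlated best with their own number. In EUC against SUC the correlations were 0.393, 0.0498 and 0.525, and in EPL against EUC they were -0.452, 0.0945 and -0.341. With the replicate block the calls of *IL36B* in SUC against NC (adjusted p = 0.015) and in *E. coli* against *S. aureus* (adjusted p = 0.0133) were lost. With only the compared groups, *IL36B* was not kept by the filter in SUC or SPL against NC or in SPL against SUC, so no value was given there. RLE size factors moved the median of all genes by at most 0.00898. *IL36B* and *IL36G* are limited by depth, with 1 to 39 counts per stimulated library.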
